A study of Homo sapiens with 18 samples.

Results

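The MYC, MAX and MLX network was followed at the RNA level in MDA-MB-231 cells that had lost GPS2 or carried active AKT. Its 10 members were the genes MYC, MAX, MXD1, MXD3, MXD4, MXI1, MNT, MGA, MLX and MLXIP, chosen by name and matched through their Ensembl identifiers to rows of a count table of 57448 genes. All 10 were found, and all 10 passed the filter on low counts that left 15587 genes for testing.

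The study counted RNA-seq reads in 18 libraries of the triple negative breast cancer line MDA-MB-231, with 3 replicates in each of 6 groups. The groups were the unmodified parental cells (WT), the GPS2 knockout pools KO1 and KO2, cells expressing myristoylated, constitutively active AKT (myrAKT), and both knockout pools after MK2206, an allosteric AKT inhibitor, at 10 µM for 4 h (KO1+MK and KO2+MK). GPS2 is a subunit of nuclear corepressor complexes, and the comparisons ask which expression changes follow from its loss and which of them depend on AKT. KO1 and KO2 were made with lentiviral CRISPR-Cas9 vectors carrying different sets of guide RNAs, and were selected with puromycin. They stayed mixed pools, not single clones, and the myrAKT cells were made with a retrovirus. No WT library is described as carrying a control virus. Against WT, loss of GPS2 can thus not be told apart from virus, Cas9 and selection, nor active AKT from its virus. The parental and myrAKT cells were not treated with MK2206, and no vehicle-treated library is described, so the inhibitor and its handling cannot be told apart.

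MYC is a basic helix-loop-helix leucine zipper factor that binds DNA as a dimer with MAX and activates genes for ribosome production, nucleotide synthesis and cell growth. The MXD proteins, MNT and MGA compete for MAX and recruit corepressors at the same DNA element, the E-box, so the balance between MYC and these repressors sets the output of the network. MLX is the MAX-like partner of MondoA, the product of MLXIP, which senses glucose-derived metabolites and activates TXNIP and ARRDC4. AKT phosphorylates FoxO factors, which then leave the nucleus, and FoxO binds the forkhead motif TGTTTAC.

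Promoter sequence is shown for the members that moved most, because E-boxes and forkhead motifs are the elements through which the network and AKT are known to act. RefSeq windows on GRCh38.p14, from 250 bases before a transcript start to 50 after it, were at hand for 9 of the 10 members (14 windows; none was used for MYC). The E-box was searched as CACGTG and the forkhead motif as TGTTTAC, each on both strands. The E-box occurred in 7.26% of 35116 human promoter windows and the forkhead motif in 3.42%. Of the 9 members, 3 (MXD4, MNT and MLX) held an E-box and 1 (MXI1) held the forkhead motif, in 2 of its 3 windows. The 250 bases before the start are printed 5′ to 3′ on the gene's strand, with a matched motif in capitals.
MXD1, chr2:69914859-69915108, plus strand, with neither motif: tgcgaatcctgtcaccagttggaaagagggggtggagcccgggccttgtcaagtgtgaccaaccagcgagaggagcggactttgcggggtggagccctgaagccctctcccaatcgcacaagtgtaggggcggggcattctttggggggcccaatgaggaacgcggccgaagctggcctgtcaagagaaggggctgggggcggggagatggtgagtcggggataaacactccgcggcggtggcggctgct
MXD4, chr4:2262110-2262359, minus strand, with an E-box 238 bases before the start: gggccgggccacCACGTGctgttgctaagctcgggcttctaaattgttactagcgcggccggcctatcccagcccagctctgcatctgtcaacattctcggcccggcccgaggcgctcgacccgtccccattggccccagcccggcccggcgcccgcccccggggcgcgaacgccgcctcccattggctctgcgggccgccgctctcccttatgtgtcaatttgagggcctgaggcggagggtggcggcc
MXI1, chr10:110209981-110210230, plus strand, with the forkhead motif 151 bases before the start: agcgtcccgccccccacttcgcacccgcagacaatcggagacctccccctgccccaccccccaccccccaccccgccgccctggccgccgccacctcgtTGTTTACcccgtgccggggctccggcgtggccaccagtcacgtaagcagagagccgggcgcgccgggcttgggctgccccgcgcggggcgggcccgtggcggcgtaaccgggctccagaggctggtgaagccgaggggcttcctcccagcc
MLX, chr17:42566850-42567099, plus strand, with an E-box 50 bases before the start: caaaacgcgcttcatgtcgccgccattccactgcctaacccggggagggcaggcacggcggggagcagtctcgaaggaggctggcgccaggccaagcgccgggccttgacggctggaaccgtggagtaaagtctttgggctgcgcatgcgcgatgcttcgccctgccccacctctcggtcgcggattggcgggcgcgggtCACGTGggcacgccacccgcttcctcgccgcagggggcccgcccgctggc
In the remaining MXI1 window with a forkhead motif, the match begins 2 bases before the start. Reads were counted per gene, so the values below do not say which MXI1 start was used, and a motif match is not a bound site.

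Depth ranged from 23419198 to 39319910 counted reads, and was lower in the treated libraries (at most 29939536) than in the untreated ones (at least 30287210). Members had between 278 counts (MXD3) and 12155 counts (MYC) in a library. Levels are given as CPM, the usual count scaled to library size, on TMM-normalized libraries. GPS2 RNA was low in all groups, at 4.39 to 4.88 CPM in WT, 4.45 to 4.52 in KO1 and 5.88 to 6.12 in KO2. It was not lower than WT in KO1 and was higher in KO2, so its count gives no check of the editing. AKT1 RNA rose from 133 to 135 CPM in WT to 218 to 242 in myrAKT (log2 fold change 0.77, adjusted p 4.27e-09). Of the markers of the line, VIM, CD44, AXL, CAV1 and KRT18 were at 148 CPM or more in all libraries. Of the 5 genes taken as low or absent, PGR and CDH1 were near 0, ESR1 was at most 1.38 CPM and GATA3 at most 4.72, whereas ERBB2 lay between 79.6 and 93.6 CPM. Among markers of other cells, PTPRC and ALB were near 0, and PECAM1 rose from 3.37 to 3.70 CPM in WT to 19.8 to 22.4 in myrAKT and fell to a mean of 1.72 in KO1 (log2 fold change -1.08, adjusted p 5.24e-06; -1.22 against KO2).

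MYC was the most abundant network RNA in WT cells per kilobase of exons. On a scale that allows genes to be compared, CPM per kilobase of exons, MYC stood at 45.8 ± 2.19 (SD, n = 3) in WT cells, followed by MLX at 19.0 ± 0.468, MAX at 13.4 ± 0.221, MLXIP at 9.95 ± 0.230 and MGA at 7.80 ± 0.197. The MAX-binding repressors MXI1, MXD4, MXD1, MNT and MXD3 lay between 6.68 and 2.42 on that scale. The MYC gene (ENSG00000136997) occupies chr8:127735434-127742951 on the plus strand, with 3 exons in its main transcript.

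MYC read 294, 267 and 279 CPM in the 3 WT libraries. It read 320, 323 and 334 CPM in KO1, 224, 215 and 242 in KO2, and 136, 143 and 118 in myrAKT. After MK2206 it read 163, 204 and 205 CPM in KO1 and 183, 159 and 146 in KO2. The order of the means was KO1, WT, KO2, KO1+MK, KO2+MK and myrAKT, and among neighbours in that order the libraries of KO1+MK and KO2+MK alone overlapped.

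**Figure D1:**
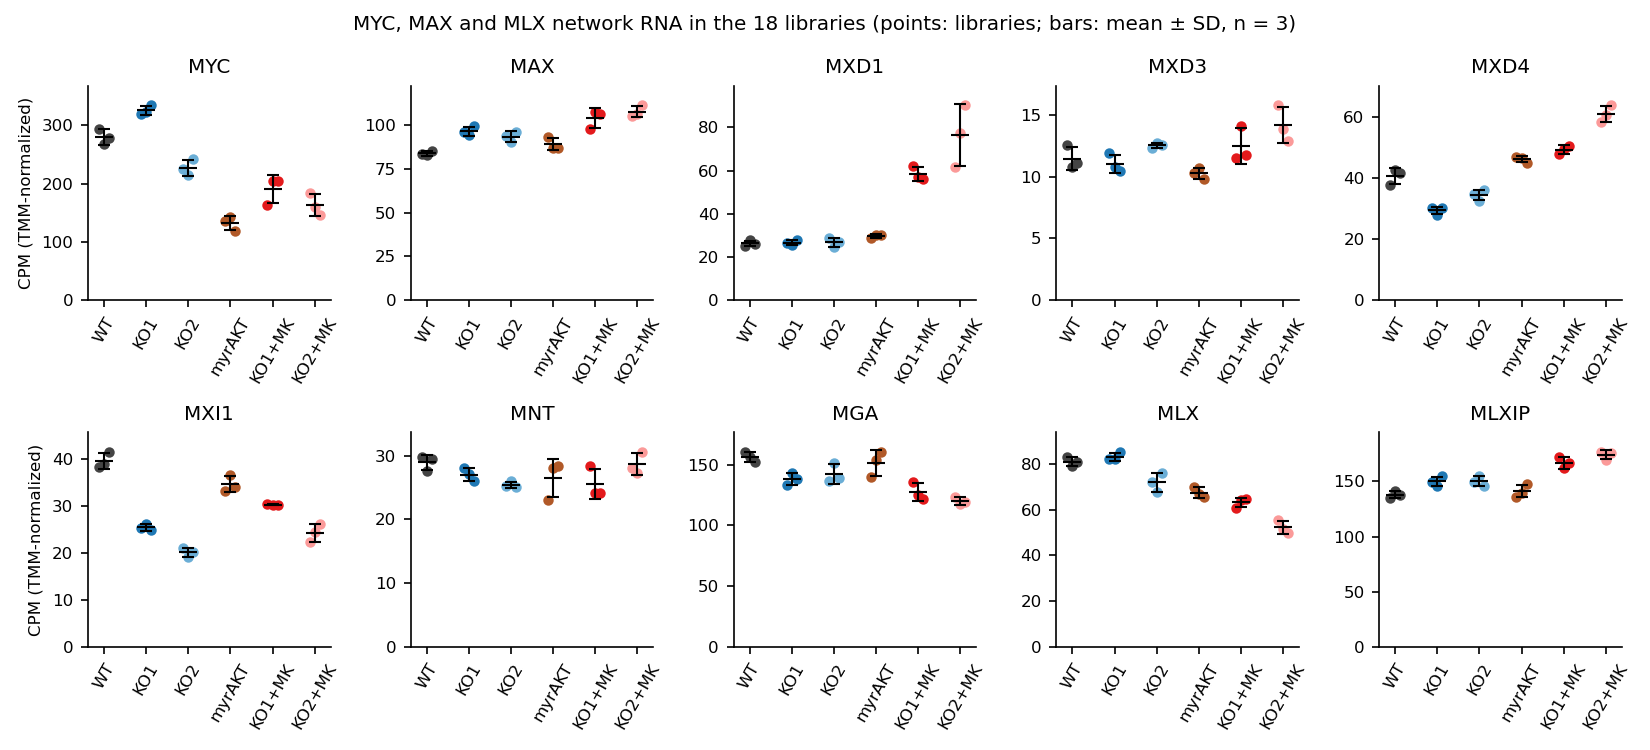
TMM-normalized CPM (vertical axes, from 0) of the 10 network genes in the 6 groups; points are libraries, bars the mean ± SD of 3. MYC is lowest in myrAKT (118 to 143 CPM), MXD1 is at 56.1 CPM or more in the treated pools and at most 30.2 elsewhere, and MXI1 is at most 26.1 CPM in the untreated knockout pools against at least 38.2 in WT.

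A gene was called when its adjusted p in edgeR's quasi-likelihood test (Benjamini-Hochberg over all genes tested) did not exceed 0.001, with no minimum fold change. KO and myrAKT were set against the same 3 WT libraries, so their results are not independent of each other. With both knockout pools together against WT, 1 of the 10 members was called lower (MXI1) and 0 higher, where 16.6% of all genes tested were called lower and 15.5% higher. At an unadjusted p under 0.05 there were 2 higher and 4 lower. DESeq2 called 1 higher and 3 lower, where it called 3222 higher and 3236 lower of all 15587 genes.

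That count hid opposite shifts of MYC itself. Against WT, MYC rose in KO1 (log2 fold change 0.20, SE 0.04, adjusted p 0.000212) and fell in KO2 (-0.31, SE 0.04, adjusted p 3.04e-05), and neither pool overlapped with WT. With all 18 libraries in 1 fit neither was called (adjusted p 0.0194 in KO1 and 0.00199 in KO2; 1.48e-10 to 0.00199 over all alternatives for KO2). The rise in KO1 was small and also missed the threshold with library totals (adjusted p 0.00147) and without KO1 replicate 3 (0.00232; 3.53e-09 to 0.0194 over all alternatives). Pooled, MYC stood at -0.04 (SE 0.14, adjusted p 0.836), with a 95% interval of -0.34 to 0.27. The direct test of KO1 against KO2 gave 0.51 (SE 0.04, adjusted p 1.91e-08).

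Among the MAX-binding repressors, MXI1 had the deepest fall after loss of GPS2. MXI1 (ENSG00000119950, chr10:110207605-110287365, plus strand) encodes an MXD family repressor that antagonizes MYC. It read 38.2, 38.8 and 41.4 CPM in WT, 25.2, 26.1 and 24.8 in KO1 and 21.0, 19.0 and 20.1 in KO2, and the groups did not overlap. Its log2 fold change was -0.66 (SE 0.05, adjusted p 2.25e-08) in KO1, -0.99 (SE 0.05, adjusted p 3.69e-09) in KO2 and -0.82 (SE 0.09, adjusted p 2.03e-05) in both together. KO2 was lower than KO1, with a difference of 0.33 (SE 0.05, adjusted p 8.68e-05).

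MXD4 (ENSG00000123933, chr4:2247432-2262109, minus strand), a further MXD repressor, read 37.6, 42.7 and 41.6 CPM in WT, 30.2, 27.9 and 30.0 in KO1 and 34.7, 32.6 and 36.1 in KO2. It was called in KO1 (-0.49, SE 0.05, adjusted p 1.59e-06). In KO2 the value was -0.25 (SE 0.06, adjusted p 0.00154) and in both pools together -0.37 (SE 0.08, adjusted p 0.00153), both just short of the threshold although the libraries did not overlap with WT. MXD4 in KO2 passed in 9 of 14 alternatives, among them the fits without WT replicate 1 (adjusted p 2.38e-05) and without KO2 replicate 3 (0.000977), with 2.38e-05 to 0.0115 over all alternatives. In both pools together it passed in 4 of 17, the fit without KO2 replicate 3 (adjusted p 0.000603; 3.64e-07 to 0.0178 over all alternatives) among them.

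MXD1, the founding MXD gene, did not separate from WT in the untreated pools. It read 25.1, 27.8 and 25.8 CPM in WT, 26.4, 25.4 and 27.8 in KO1 and 28.7, 24.5 and 27.0 in KO2, and all groups overlapped. The pooled log2 fold change was 0.0041, with a 95% interval of -0.12 to 0.13. MXD3 and MNT were not called in either pool, at 0.02 and -0.16 with both together, within intervals of -0.15 to 0.20 and -0.27 to -0.06. In KO2, MNT stood at -0.19 (SE 0.05, adjusted p 0.00316) and its libraries lay below WT.

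MAX, the shared partner, and MGA, a large MAX-binding scaffold of a Polycomb complex, shifted slightly. MAX was called in KO1 (0.18, SE 0.03, adjusted p 0.000249) and stood at 0.15 in KO2 (adjusted p 0.00181). MGA was called in KO1 (-0.20, SE 0.03, adjusted p 0.000142) and stood at -0.14 in KO2 (adjusted p 0.0107). Both calls in KO1 were lost without KO1 replicate 1 (adjusted p 0.00129 for MAX and 0.00325 for MGA) and without KO1 replicate 3 (0.00228 and 0.00117). In KO1 the adjusted p ran from 2.56e-06 to 0.00228 for MAX and from 9.71e-06 to 0.00331 over all alternatives for MGA. MGA in KO2 passed without KO2 replicate 2 (adjusted p 0.000349; 0.000349 to 0.0322 over all alternatives). Without that same library MAX (adjusted p 0.000961; 6.71e-05 to 0.00613 over all alternatives) and MGA (0.000443; 0.000443 to 0.0287 over all alternatives) also passed with both pools together.

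MLX and MLXIP were called in neither untreated pool. MLX stood at 0.02 in KO1 (adjusted p 0.589) and at -0.18 in KO2 (SE 0.04, adjusted p 0.00165), where its libraries lay below WT and where it passed with DESeq2 (0.000984), with upper-quartile factors (0.000761) and without KO2 replicate 3 (0.000512; 0.000512 to 0.00935 over all alternatives). MLXIP stood at 0.10 in KO1 (adjusted p 0.0128) and 0.12 in KO2 (adjusted p 0.0161), with no overlap with WT.

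In KO1 alone, 2 members were called higher (MYC and MAX) against 20.5% of all genes, and 3 lower (MXD4, MXI1 and MGA) against 21.3%. In KO2 alone, 0 members were called higher against 20.8% of all genes, and 2 lower (MYC and MXI1) against 22.2%; 2 were higher and 6 lower at an unadjusted p under 0.05, and DESeq2 called 0 and 4. Between the pools, 3 members were higher in KO1 (MYC, MXI1 and MLX) against 7.06% of all genes, and 1 (MXD4) was higher in KO2 against 5.54%. The MLX difference (0.20, SE 0.04, adjusted p 0.000643) and the MXD4 difference (-0.24, SE 0.05, adjusted p 0.000979) each kept the call in 1 of 6 fits that left out a library. The exceptions were the fit without KO2 replicate 3 for MLX and without KO2 replicate 2 for MXD4, and the other fits gave adjusted p values of 0.00171 to 0.00451 for MLX and 0.00270 to 0.00545 for MXD4.

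In myrAKT cells MYC fell to its lowest level of the 6 groups. Its log2 fold change was -1.09 (SE 0.06, adjusted p 2.80e-09), a 2.13-fold lower level, and the highest myrAKT library (143 CPM) stood far below the lowest WT library (267 CPM). MLX (ENSG00000108788, chr17:42567072-42573239, plus strand) fell by 0.27 on the log2 scale (SE 0.04, adjusted p 8.23e-05), from 82.8, 78.8 and 80.9 CPM in WT to 70.0, 66.6 and 65.3. These were the 2 members called lower, against 17.3% of all genes, and 0 were called higher, against 12.7%. The balance over all genes turned from 1980 higher and 2697 lower to 2358 and 2312 with upper-quartile scaling and to 2413 and 2325 with library totals. At an unadjusted p under 0.05 there were 2 higher and 3 lower, and DESeq2 called 0 and 2. MXD4 and MXD1 both stood at 0.17 (adjusted p 0.0144 and 0.0180) and MXI1 at -0.20 (adjusted p 0.00674), in each case with no overlap of the libraries.

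**Figure D2:**
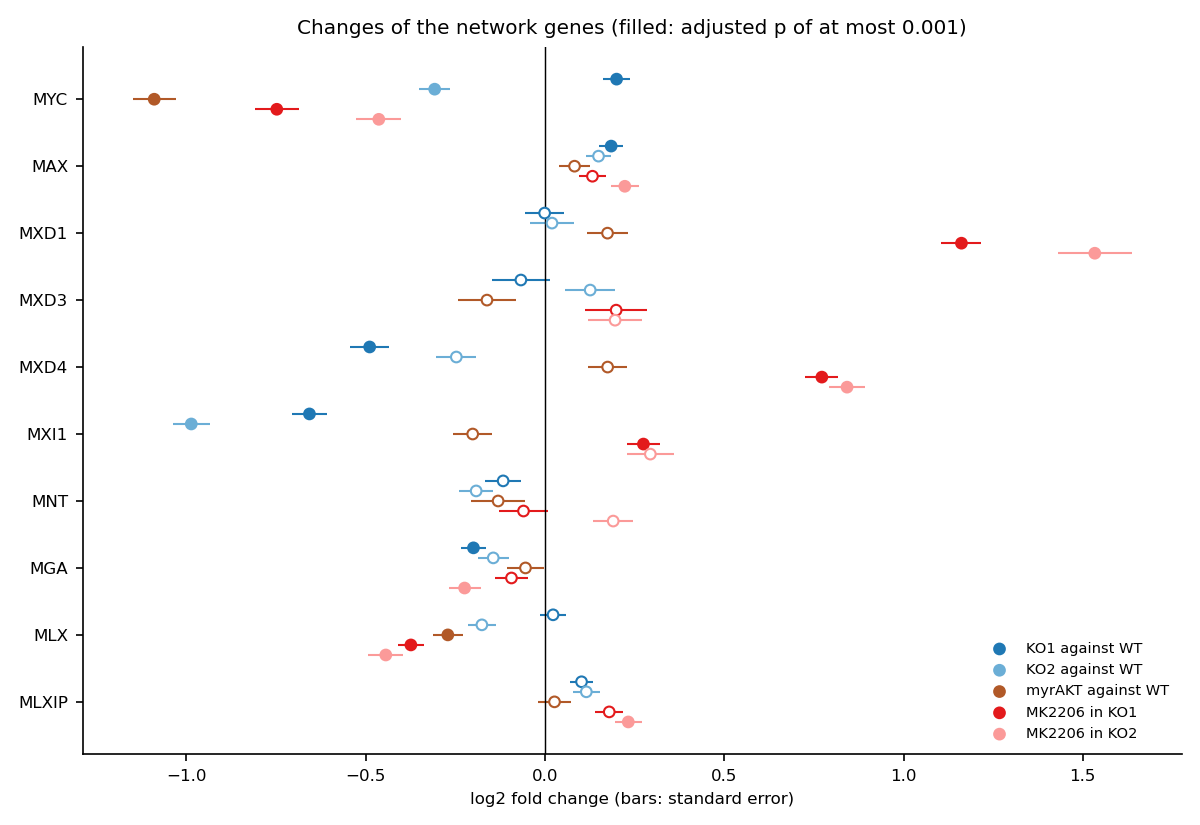
Log2 fold changes (horizontal axis) with standard errors for the 10 network genes in 5 comparisons of single groups; filled points have an adjusted p of at most 0.001. MYC lies at 0.20 in KO1 and -0.31 in KO2, and MXD1 lies at 1.16 and 1.53 on MK2206 in KO1 and KO2.

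With both pools together, MK2206 changed 6 of the 10 members. Of these, 4 members rose (MXD1, MXD4, MLXIP and MAX) where 12.8% of all genes did, and 2 fell (MYC and MLX) where 8.75% did. With upper-quartile scaling the calls over all genes turned from 1988 higher and 1364 lower to 1695 and 1812.

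MXD1 (ENSG00000059728, chr2:69897688-69942945, plus strand) had the steepest rise. After MK2206 it read 62.1, 57.1 and 56.1 CPM in KO1 and 61.5, 77.3 and 90.2 in KO2, against at most 28.7 in the untreated pools. The log2 fold change was 1.16 (SE 0.06, adjusted p 1.25e-08) in KO1 and 1.53 (SE 0.10, adjusted p 3.88e-08) in KO2. With both together it was 1.36 (SE 0.11, adjusted p 2.92e-07), a 2.57-fold higher level. The lowest KO2+MK library overlapped with KO1+MK, and the treated pools' SDs were 3.25 CPM in KO1 and 14.4 in KO2.

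MXD4 also rose in both pools. After MK2206 it read 47.7, 49.6 and 50.5 CPM in KO1 and 58.4, 60.7 and 63.7 in KO2, above every WT library. The log2 fold change was 0.77 (SE 0.05, adjusted p 7.51e-08) in KO1, 0.84 (SE 0.05, adjusted p 1.12e-08) in KO2 and 0.81 (SE 0.08, adjusted p 2.65e-06) together.

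MXI1 moved by less and stayed below WT. It read 30.2, 30.1 and 30.2 CPM in KO1+MK and 22.3, 24.3 and 26.1 in KO2+MK, against at least 38.2 in WT. The log2 fold change on MK2206 was 0.27 (SE 0.05, adjusted p 0.000369) in KO1 and 0.29 (SE 0.07, adjusted p 0.00188) in KO2. The call in KO1 was lost without KO1 replicate 1 or 3 and without KO1+MK replicate 2 or 3 (adjusted p 0.00189 to 0.00311), and the value in KO2 passed without KO2+MK replicate 1 (0.000202; 0.000113 to 0.0113 over all alternatives). In both pools together it stood at 0.28 (adjusted p 0.0256), and with the knockout pool as a covariate, a fit added after seeing the data, at 0.28 with an adjusted p of 6.40e-06. Over all alternatives the pooled adjusted p ran from 6.4e-06 to 0.0569.

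MYC fell on MK2206 in each pool, by 0.75 on the log2 scale in KO1 (SE 0.06, adjusted p 9.93e-07) and by 0.46 in KO2 (SE 0.06, adjusted p 2.91e-05). In each pool the treated libraries lay below the untreated ones. With both pools together the value was -0.62 (SE 0.12, adjusted p 0.000742). That pooled call was lost without any 1 of KO1 replicates 1, 2 and 3, KO1+MK replicate 1 and KO2+MK replicates 1, 2 and 3 (adjusted p 0.00139 to 0.00218), and it held with the knockout pool as a covariate (1.03e-07). Over all alternatives the adjusted p ran from 2.77e-09 to 0.00252.

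MLX fell and MLXIP rose on the inhibitor. MLX read 60.7, 64.1 and 64.5 CPM in KO1+MK and 55.4, 51.3 and 49.8 in KO2+MK, against 82.1, 82.2 and 85.2 in KO1 and 72.1, 67.7 and 75.9 in KO2. Its log2 fold change was -0.37 (SE 0.04, adjusted p 3.73e-06) in KO1, -0.44 (SE 0.05, adjusted p 4.22e-06) in KO2 and -0.41 (SE 0.07, adjusted p 0.000350) together. The pooled call was lost without any 1 of the 3 KO1 libraries (adjusted p 0.00106 to 0.00112).

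MLXIP (ENSG00000175727, chr12:122078756-122147344, plus strand) read 173, 162 and 167 CPM in KO1+MK and 177, 170 and 176 in KO2+MK, against 146 to 155 in the untreated pools. Its log2 fold change was 0.21 (SE 0.03, adjusted p 7.95e-05) in both pools together, 0.18 in KO1 (adjusted p 0.00220) and 0.23 in KO2 (adjusted p 0.000139). The pooled call was lost with no filter beyond 1 count (adjusted p 0.00302). The call in KO2 was lost without KO2 replicate 1 (adjusted p 0.00179) or 3 (0.00145), with 4.3e-07 to 0.00179 over all alternatives. MAX stood at 0.18 in both together (SE 0.03, adjusted p 0.000403) with overlapping libraries, and 10 of the 12 fits that left out a library lost the call (adjusted p 0.00101 to 0.00212), the exceptions being KO1 replicate 3 and KO1+MK replicate 1. The MAX call was also lost with no filter beyond 1 count (adjusted p 0.0322).

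In KO1, 3 members rose on MK2206 (MXD1, MXD4 and MXI1) where 10.9% of all genes did, and 2 fell (MYC and MLX) where 8.26% did. With upper-quartile scaling the calls over all genes in KO1 turned from 1697 higher and 1288 lower to 1473 and 1602. In KO2, 4 rose (MXD1, MXD4, MLXIP and MAX) where 13.1% of all genes did, and 3 fell (MLX, MYC and MGA) where 8.78% did. With upper-quartile scaling the calls over all genes in KO2 turned from 2047 higher and 1369 lower to 1680 and 1854. The KO2 call of MAX (0.22, adjusted p 0.000229) was lost without KO2 replicate 1 or 2 and KO2+MK replicate 2 or 3 (adjusted p 0.00101 to 0.00217). The KO2 call of MGA (-0.22, adjusted p 0.000828) was lost without any 1 of the 3 KO2 libraries and KO2+MK replicates 2 and 3 (adjusted p 0.00127 to 0.00944). MAX in KO1 (0.13, adjusted p 0.0135) passed without KO1+MK replicate 1 (0.000679; 0.000679 to 0.137 over all alternatives).

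Whether the inhibitor acted with unequal size in the pools was tested as an interaction. By edgeR, 0 of the 10 members were called higher or lower, where 0.0128% of all genes were called higher and 0.0% lower, and DESeq2 called 0. At an unadjusted p under 0.05 there were 3 members, MYC (0.28, 95% interval 0.06 to 0.50), MXD1 (0.37, 0.08 to 0.67) and MNT (0.25, 0.06 to 0.44), given as the log2 fold change in KO2 minus that in KO1. For MYC the log2 fold change was -0.75 in KO1 and -0.46 in KO2, for MXD1 it was 1.16 and 1.53, and for MNT -0.06 and 0.19. The MNT value in KO1 ran from -0.15 without KO1+MK replicate 1, which read 28.3 CPM against 24.2 in both other libraries, to -0.03 without KO1+MK replicate 3 (adjusted p 0.0299 to 0.778).

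Treated pools differed from WT in 7 of the 10 members, of which 3 were higher (MXD1, MAX and MLXIP) where 16.0% of all genes were, and 4 lower (MYC, MXI1, MLX and MGA) where 16.1% were. MYC stood at -0.67 (SE 0.09, adjusted p 6.97e-05), MXD1 at 1.36 (SE 0.15, adjusted p 1.02e-05) and MXI1 at -0.55 (SE 0.09, adjusted p 0.000306). The MXI1 call and the MLX call (-0.50, adjusted p 0.000169) were each lost without any 1 of the 3 WT libraries (adjusted p 0.00146 to 0.00299 and 0.00102 to 0.00154). MXD4 stood at 0.43 (adjusted p 0.00185) with no overlap, and passed without KO1+MK replicate 1 (0.000995; 1.65e-08 to 0.015 over all alternatives).

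Taking the 4 MXD genes as a sum of CPM per kilobase of exons showed how far MYC and these 4 antagonists parted. MNT and MGA, which also compete for MAX, were left out of the sum. They stood at 3.33 and 7.80 on that scale in WT. The sum was 19.1 ± 0.532 (SD, n = 3) in WT, 15.1 ± 0.277 in KO1, 15.3 ± 0.657 in KO2 and 19.4 ± 0.482 in myrAKT. After MK2206 it was 24.1 ± 0.290 in KO1 and 28.0 ± 2.67 in KO2. The ratio of MYC to that sum was 2.40 ± 0.179 in WT, 3.54 ± 0.104 in KO1, 2.44 ± 0.103 in KO2, 1.12 ± 0.0891 in myrAKT, 1.30 ± 0.168 in KO1+MK and 0.965 ± 0.206 in KO2+MK. The highest ratio in myrAKT or a treated pool (1.41) lay below the lowest in WT, KO1 or KO2 (2.25), while KO2 overlapped with WT. This ratio describes RNA and carries no test.

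**Figure D3:**
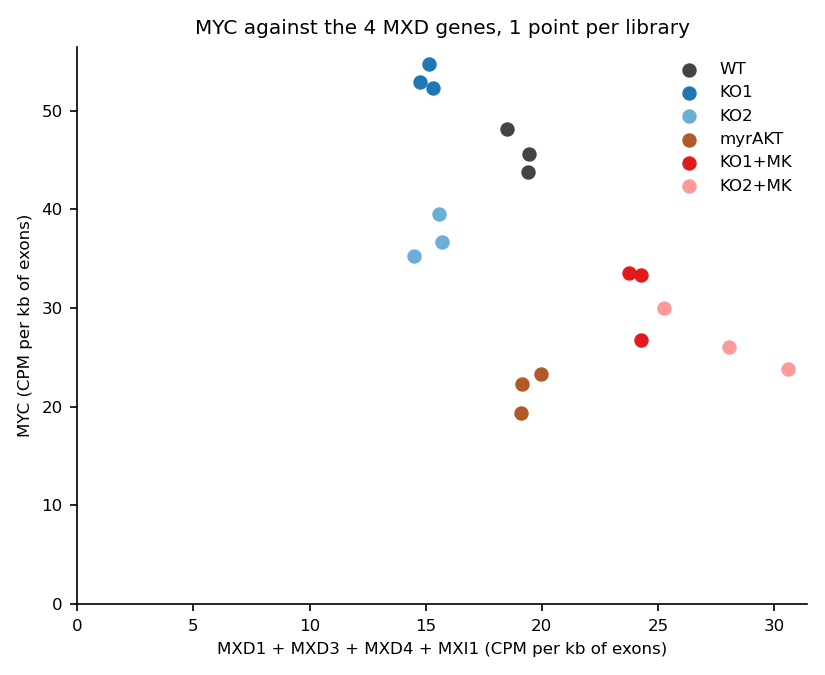
MYC (vertical axis) against the sum of MXD1, MXD3, MXD4 and MXI1 (horizontal axis), both in CPM per kilobase of exons, 1 point per library. KO1 libraries lie highest with a low MXD sum, and treated pools combine a sum of 23.8 or more with MYC at 33.5 or less.

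Some of these genes share exon sequence with neighbours, and the strand setting of the counting is not given in the sources used here. MXD3 (ENSG00000213347, chr5:177301461-177312757, minus strand) shares 24.2% of its exon bases with PRELID1 on the opposite strand, which had a mean of 2906 counts against 398 for MXD3, and 19.5% with RAB24. MLX shares 18.2% with PSMC3IP, MAX 13.1% with FNTB and MXD1 3.73% with SNRNP27, so reads in these stretches cannot be assigned with certainty.

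The closest relatives outside the 10 were expressed at much lower levels. MYCL, a MYC paralog, was at 1.18 to 1.66 CPM in WT and at most 0.755 CPM in the untreated knockout pools, with a log2 fold change of -1.54 (SE 0.25, adjusted p 0.000265) that missed the threshold without WT replicate 1 or 3 (adjusted p 0.00170 to 0.00296). MLXIPL, which encodes ChREBP, the other glucose-responsive partner of MLX, was at 3.12 to 3.89 CPM in WT and at most 1.77 CPM in the knockout pools (-1.18, SE 0.12, adjusted p 9.80e-06). MYCN had at most 2 counts in a library and did not pass the filter. In myrAKT, MYCL stood at -0.12 (adjusted p 0.661) and MLXIPL at -0.15 (adjusted p 0.411), and on MK2206 they stood at 1.12 (adjusted p 0.00158) and 0.35 (adjusted p 0.0485).

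Most of the listed genes that MYC is known to activate rose after GPS2 loss, while MYC RNA was not called with both pools together. The list was written by hand with earlier results of these data known, so it does not stand for all MYC targets. Of 42 such targets, all tested, 36 rose in KO against WT and 0 fell (1 at an unadjusted p under 0.05; 0 by DESeq2), with a median log2 fold change of 0.50 against -0.0029 over all genes. NOP56, a nucleolar protein of box C/D particles, rose by 0.86 (SE 0.08, adjusted p 4.12e-06), from a mean of 188 to 346 CPM. GRWD1, a ribosome assembly factor, rose by 0.85 (SE 0.06, adjusted p 5.16e-07). In KO1, where MYC was higher, 39 rose and 0 fell, and in KO2, where MYC was lower, 37 rose and 1 fell. The shares over all genes, against which this and the following lists are to be read, were 15.5% higher and 16.6% lower in KO, 12.7% and 17.3% in myrAKT, and 12.8% and 8.75% on MK2206.

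In myrAKT, 1 of the 42 rose and 5 fell, with a median of -0.03 against 0.02 over all genes. By edgeR, neither share of the 42 exceeded that over all genes. At an unadjusted p under 0.05, 6 of the 42 were higher and 17 lower. DESeq2 called 1 higher and 8 lower, where it called 2217 and 2879 of all 15587 genes. TERT, the telomerase catalytic subunit, fell by 2.47 (SE 0.21, adjusted p 1.94e-07) and NOP16, a nucleolar protein, by 0.42 (SE 0.05, adjusted p 1.18e-05). On MK2206, 24 fell and 0 rose (0 at an unadjusted p under 0.05; 0 by DESeq2), with a median of -0.26 against -0.0031. RRS1, a ribosome biogenesis regulator, fell by 1.03 (SE 0.06, adjusted p 2.42e-08) and WDR43, a factor of the small subunit processome, by 0.80 (SE 0.07, adjusted p 5.75e-07). In treated pools against WT, 14 were higher and 2 lower, with a median of 0.17 against 0.0042 over all genes, of which 16.0% were higher and 16.1% lower.

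**Figure D4:**
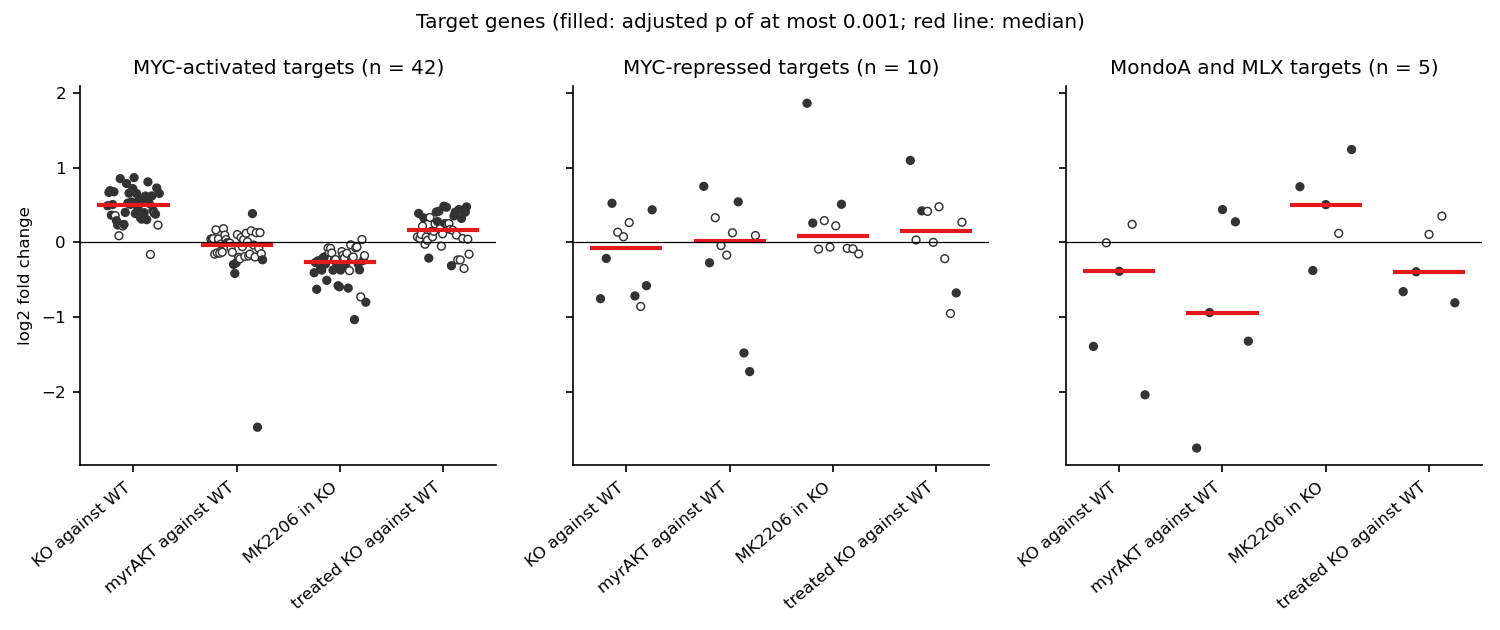
Log2 fold changes (vertical axis) of MYC-activated targets, MYC-repressed targets and MondoA and MLX targets in 4 comparisons; each point is a gene, filled where called, and red lines are medians. The median of the 42 MYC-activated targets is 0.50 in KO against WT, -0.03 in myrAKT and -0.26 on MK2206.

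Of 12 genes that MYC is known to repress, 10 were tested. In KO, 2 rose and 4 fell, and CDKN1A, an inhibitor of cyclin-dependent kinases, fell by 0.75 (SE 0.07, adjusted p 5.28e-06), as did NDRG1, a stress-responsive gene, by 0.72 (SE 0.11, adjusted p 0.000167). The NDRG1 call was lost without WT replicate 2 or 3 (adjusted p 0.00235 to 0.00239). In myrAKT 2 rose and 3 fell, with PDGFRB, a receptor tyrosine kinase, at -1.73 (SE 0.10, adjusted p 5.87e-09) and NDRG2 at -1.48 (SE 0.14, adjusted p 6.39e-07). On MK2206 3 rose and 0 fell (1 at an unadjusted p under 0.05; 0 by DESeq2), and CDKN1A stood at 1.86 (SE 0.11, adjusted p 3.80e-08) and NDRG1 at 0.51 (SE 0.07, adjusted p 3.14e-05). Within the pools, 2 rose and 2 fell in KO1, where 10.9% of all genes rose and 8.26% fell, and 4 rose and 0 fell in KO2, where 13.1% rose and 8.78% fell (0 lower by DESeq2). The falls in KO1 were THBS1 (-0.34, adjusted p 4.56e-05) and GADD45A (-0.31, adjusted p 0.000578), named after their values were seen. The GADD45A call was lost without KO1 replicate 1, 2 or 3 or KO1+MK replicate 3 (adjusted p 0.00173 to 0.00525).

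Of 6 targets of MondoA and MLX, 5 were tested. In KO, 3 fell and 0 rose (1 at an unadjusted p under 0.05; 0 by DESeq2). TXNIP, an arrestin that limits glucose uptake, stood at -2.04 (SE 0.10, adjusted p 7.67e-08), and its relative ARRDC4 at -1.39 (SE 0.08, adjusted p 2.75e-07). In myrAKT 3 fell and 2 rose, with ARRDC4 at -2.75 (SE 0.15, adjusted p 2.19e-09) and TXNIP at -1.32 (SE 0.14, adjusted p 1.68e-06). On MK2206 3 rose and 1 fell, with TXNIP at 1.24 (SE 0.07, adjusted p 2.89e-08) and ARRDC4 at 0.74 (SE 0.07, adjusted p 1.96e-06). MLX itself fell there (-0.41), and MLXIP, which encodes MondoA, rose (0.21).

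Of 16 coactivators and corepressors, 5 rose and 1 fell in KO, where 15.5% of all genes were called higher and 16.6% lower. The changes were led by WDR5, a chromatin scaffold that binds MYC (0.57, SE 0.04, adjusted p 4.30e-07) and the acetyltransferase KAT2A (0.35, SE 0.05, adjusted p 0.000205). In myrAKT 0 rose and 2 fell (3 higher at an unadjusted p under 0.05; 1 by DESeq2), the acetyltransferase KAT5 at -0.75 (SE 0.07, adjusted p 5.11e-07) and the helicase RUVBL1 at -0.29 (SE 0.04, adjusted p 3.88e-05). On MK2206 0 rose and 3 fell (2 higher at an unadjusted p under 0.05; 0 by DESeq2), with KAT5 at -0.31 (adjusted p 0.000612) and KAT2A at -0.23 (adjusted p 0.000675), calls that held in 5 and 4 of 12 fits that left out a library (adjusted p 0.00107 to 0.00192 and 0.00112 to 0.00208 where lost).

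Of 10 partners of MGA in its Polycomb complex, 4 rose and 0 fell in KO (0 at an unadjusted p under 0.05; 0 by DESeq2), led by TFDP1, an E2F partner (0.55, SE 0.03, adjusted p 2.89e-07) and L3MBTL2 (0.50, SE 0.05, adjusted p 4.93e-06). In myrAKT 1 rose, L3MBTL2 (0.33, SE 0.07, adjusted p 0.000762), a call that held without myrAKT replicate 3 and was lost in the other 5 fits that left out a library (adjusted p 0.00115 to 0.00592). On MK2206 1 rose, RYBP (0.73, SE 0.13, adjusted p 0.000279), and 2 fell, with CBX3, a heterochromatin protein, at -0.24 (SE 0.02, adjusted p 2.08e-06). The RYBP call was lost without KO2+MK replicate 2 (adjusted p 0.00113).

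Of 18 genes for turnover of MYC protein, which these counts do not measure, 8 rose and 1 fell in KO. The fall was in PIM1, a kinase of MYC (-0.89, SE 0.06, adjusted p 6.27e-07), and the largest rise was in SKP2, a ubiquitin ligase subunit (0.69, SE 0.06, adjusted p 1.94e-06). In myrAKT 4 rose and 3 fell, with the deubiquitinase USP28 at -0.68 (SE 0.04, adjusted p 8.53e-09) and SKP2 at 0.53 (SE 0.05, adjusted p 9.39e-07). On MK2206 5 rose and 4 fell, with PIM1 at 0.80 (SE 0.06, adjusted p 3.66e-07) and FBXW7, the ligase subunit that marks MYC for degradation, at 0.47 (SE 0.04, adjusted p 1.07e-06).

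Of 8 other genes for factors that bind E-boxes, 1 rose and 2 fell in KO, close to the 15.5% and 16.6% over all genes, with TFEB, a lysosomal regulator, at -1.88 (SE 0.12, adjusted p 3.25e-07) and its relative MITF at 0.53 (SE 0.05, adjusted p 3.94e-06). In myrAKT 1 rose and 3 fell, with TFEC at -3.87 (SE 0.48, adjusted p 1.01e-05, from a mean of 0.611 CPM) and MITF at -0.53 (SE 0.05, adjusted p 7.76e-07). On MK2206 2 fell and 0 rose (1 at an unadjusted p under 0.05; 0 by DESeq2), TFEC at -0.97 (adjusted p 0.000462, held in 3 of 12 fits that left out a library and at 0.00111 to 0.00140 in the others) and MITF at -0.60 (SE 0.05, adjusted p 5.73e-07). TFEC reached 1 CPM only in untreated knockout libraries, so it passed the filter through the group where it was high. Its fall on MK2206 is therefore a description and lends no support. Of 5 neighbours of MYC on its chromosome, PVT1, a long noncoding RNA, was the 1 that was tested, and it was not called in KO (0.24, adjusted p 0.0973), in myrAKT (0.36, adjusted p 0.00589) or on MK2206 (-0.42, adjusted p 0.00842).

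The genes whose level followed each member most closely were sought among 12102 tested genes that averaged 100 counts or more, by Pearson correlation of log2 CPM over the 18 libraries. For MYC these were DNAAF2, ACTR1B, RFTN1, WWC1 and SLC29A2, with r from 0.97 to 0.98. The closest gene was CSRNP2 for MXD1 (r = 0.99), TBC1D16 for MXI1 (0.98), MED13L for MLXIP (0.97), FAM171A1 for MLX (0.97), MAP3K13 for MXD4 (0.97), ALG2 for MAX (0.97) and ZSWIM7 for MGA (0.94). Likeness was lower for MXD3 (GATC, 0.84) and MNT (ENSG00000280287, 0.72). Among the members, the correlation was 0.77 between MYC and MLX, -0.74 between MYC and MXD4, 0.83 between MXD1 and MXD4 and -0.96 between MAX and MGA. These values describe 18 libraries that fall into 6 groups, share their scaling and differ in depth with treatment.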

How the data were processed

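RNA was sequenced from 18 libraries of MDA-MB-231 cells (6 groups, 3 replicates each). The labels do not say that replicates were separate cultures, so p-values measure the spread between libraries, which may be technical. The deposited unit is the count of reads per Ensembl gene, made by the authors from ribosomal RNA-depleted, paired-end libraries sequenced in 2 runs. FastQC, Trim Galore, HISAT2 on hg38 and featureCounts are named in the submitters' processing notes, as is MultiQC. Versions, annotation and strand setting are not given in the sources used here.

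Symbols came from GENCODE release 44 (41445 identifiers with a symbol, 56948 with a position). A gene had to reach 1 CPM in 3 or more of the 18 libraries, and the 15587 that did were tested with edgeR 4.0.16 in R 4.3.3 (TMM, glmQLFit and glmQLFTest, two-sided, Benjamini-Hochberg), each comparison fitted on its own groups. A call was an adjusted p of at most 0.001, and the standard error was the log2 fold change divided by the square root of F. The study's methods name DESeq2 with a 1.5-fold minimum, and both were alternatives here (DESeq2 1.42.0). The other alternatives were RLE, upper-quartile and library-total scaling, 2 other filters, an adjusted p of 0.05, all libraries in 1 fit, a replicate block, Spearman correlation, and the omission of each library. The methods were tested on simulated counts. Replicate pairs differed by more than counting error (mean chi-square per gene 2.14 to 9.78).

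Depth was 23419198 to 39319910 counted reads; a count of 0 allows up to 3 counts, for counting error only. The members and gene lists were chosen with earlier results of these data known. The lists were paralogs, other E-box factors, MYC-activated and MYC-repressed targets, MondoA and MLX targets, coactivators and corepressors, the MGA complex, MYC turnover and MYC neighbours, described by counts and medians with no set test. Named were the 10 members, GPS2 and AKT1, the 5 genes most like MYC and the 1 most like each other member, the paralogs, and the 2 called genes of each list with the largest change in KO, myrAKT and MK2206. Promoter sequences were RefSeq windows on GRCh38.p14, and protein sequences were not used here. Figures and tables were made with pandas 2.3.3 and matplotlib 3.10.9.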

Additional observations from a re-analysis of the deposited data

Results flagged for a closer look

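4 of the 10 members differed between the knockout pools in the direct test of KO1 against KO2, that is, in their change from the shared WT libraries. MYC was 0.51 higher in KO1 on the log2 scale, with a rise from WT in KO1 and a fall in KO2. MXI1 was 0.33 higher and MLX 0.20 higher in KO1, and MXD4 was 0.24 lower in KO1 (log2 difference -0.24). For MXI1 and MXD4 both pools lay below WT in all libraries. Single libraries were not tested within the labelled groups of 3. KO1+MK replicate 1 lay apart from the rest of its group in MYC (163 CPM against 204 and 205). It also did so in MAX (97.8 against 108 and 107) and MNT (28.3 against 24.2 in both). In myrAKT, replicate 1 lay apart in MAX (93.4 CPM against 87.2 in both). That library also did so in MNT (23.1 against 28.1 and 28.3) and MGA (140 against 154 and 160). These are examples and not a full list. With the pools joined into sets of 6 libraries, untreated or treated, 0 of 20 sets over the 10 members had an outermost library past the 95% level of Dixon's test. Because KO1 and KO2 differ, such a set can hide a library that stands apart from its own pool.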

How the results depend on the processing

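Of 39 calls among 100 pairs of member and comparison, 22 held in every alternative run, 17 were lost in at least 1, and 12 further pairs gained a call in at least 1. In KO against WT, DESeq2 called 4 members, no filter beyond 1 count 2 and all libraries in 1 fit 3, against 1. Over all 15587 genes, DESeq2 called 3222 higher and 3236 lower and the 1 fit 3785 and 3758, against 2420 and 2586. With no filter it was 2878 and 2776 of 39769. In KO1 against WT, 5 members became 3 with library totals or all libraries in 1 fit and 1 with the 1.5-fold minimum at either adjusted p. Over all genes, library totals called 2785 higher and 3586 lower and the 1 fit 3359 and 3096, against 3191 and 3315. In KO2 against WT, 2 became 4 with DESeq2 or upper-quartile factors and 1 with the fold minimum. Over all genes, DESeq2 called 3246 higher and 3576 lower and upper-quartile factors 3068 and 3624, against 3249 and 3466. All libraries in 1 fit also gave 2 in KO2, with MXD4 gained and MYC lost (adjusted p 0.00199). With the fold minimum, the counts were 1 in myrAKT (2 without), 3 on MK2206 (6), 3 in KO1 on MK2206 (5), 2 in KO2 on MK2206 (7), 0 between the pools (4) and 2 in treated pools against WT (7). Between the pools, all libraries in 1 fit gave 2. Leaving out a library gave 1 to 3 members in KO against WT, 2 to 5 in KO1, 2 to 4 in KO2, 3 to 6 on MK2206, 4 to 6 and 4 to 8 on MK2206 in KO1 and KO2, 2 to 3 between the pools and 5 to 8 in treated pools. Calls were also lost for MGA in KO1 (adjusted p 0.00331) and MXI1 on MK2206 in KO1 (0.00106) with all libraries in 1 fit, for MAX in KO1 with library totals (0.00114), for MLXIP in treated pools with no filter (0.00104), and between the pools for MXD4 (0.00112 to 0.00248) under both other filters and in 1 fit and for MLX (0.00113 to 0.00116) with library totals and in 1 fit. The cause was not tested. The knockout pool as a covariate, added after seeing the data, gave 7 members on MK2206.

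The replicate numbers did not pair the samples (deviations of same-numbered libraries correlated at -0.518 to 0.297 over 45 pairs, 12 of them over 0.1). A library correlated best with its own number in 28 of 90 cases. With a replicate block, MK2206 called 4 members against 6 (without MYC, at -0.62, and MLX, at -0.41), treated pools against WT 5 against 7, and KO2 against WT 3 against 2.

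Sign changes occurred in 44 values of 10 results, all uncalled in both fits. For MXD1 in KO1, they were 0.0057 (DESeq2), 0.0055 (RLE), 0.036 (no filter), 0.0034 (10 counts in every library), 0.018 (1 fit) and 2.7e-05 (replicate block). For MXD1 in KO they were -0.013 (upper quartile) and -0.0155 (library totals), and for MLX in KO1 -0.0060 and -0.011 under the same settings. Without a filter MLXIP in myrAKT gave -0.012, and MXD1 and MLXIP between the pools 0.024 and 0.032. For the difference of the MK2206 effect, MXD3 gave 0.015 (no filter), 0.0078 (10 counts) and 0.0027 (1 fit), and MXI1 -0.00074 (upper quartile) and -0.0058 (library totals). Leaving out a library gave -0.099 to 0.025 for MYC in KO, -0.021 to 0.066 for MXD1 in KO, -0.0355 to 0.055 in KO1, -0.045 to 0.072 in KO2 and -0.074 to 0.030 between the pools, -0.013 to 0.046 for MLXIP in myrAKT and -0.036 to 0.017 between the pools, and -0.0725 to 0.105 for MXD3 and -0.027 to 0.092 for MXI1 in the difference of the MK2206 effect.

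With the 1.5-fold minimum, 14 MYC-activated targets were called in KO (36 without), 18 in KO1 (39), 10 in KO2 (38), 1 in myrAKT (6), 5 or 6 (at an adjusted p of 0.001 or 0.05) on MK2206 (24) and 0 in treated pools (16). Of 909 list counts, 188 moved by over 1.5 times, 114 of them under a fold minimum. Library totals in place of TMM moved 8 of 60 member means by over 1 SD and the order of groups for 5 members. By Spearman correlation, 2 of the 5 genes most like MYC were shared.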
